A study of Homo sapiens with 12 samples.

Results

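Integrins and laminins are the receptors and the ligands that hold epithelial cells on a basement membrane. Their genes were followed in RNA sequencing of HT1376, a human bladder cancer cell line, and the members were all genes whose symbol names an integrin alpha subunit, an integrin beta subunit or a laminin alpha, beta or gamma chain. These were 38 of the 60666 genes in the count table, with 18 integrin alpha subunits, 8 integrin beta subunits and 12 laminin chains. The rule uses gene symbols and no measured value. The 4 groups of 3 libraries each all came from HT1376 clones made with CRISPR/Cas9. HT1376 CT carried a guide against luciferase and HT1376 FOXP3 KO carried guides against exon 2 of FOXP3, and each line was left untreated or was given 100 ng/mL interferon gamma (IFNγ) for 48 hours. Each line is a single-cell clone, so the loss of FOXP3 and other differences between the 2 clones cannot be told apart. Libraries carry the replicate numbers 11, 12 and 13 in each group. The sources used here do not say that they came from separate cultures, so the tests measure the spread between these libraries, which may be technical.

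An integrin is a pair of 1 alpha and 1 beta subunit that spans the cell membrane and binds the matrix outside and adaptor proteins inside. A laminin is a cross-shaped trimer of an alpha, a beta and a gamma chain, and its name gives the numbers of the chains. Laminin-332, which holds LAMA3 and LAMB3, is the main anchoring laminin of stratified epithelia and of the urothelium, where the integrin pair ITGA6 and ITGB4 ties it to the keratin skeleton in hemidesmosomes. Laminin-511 and laminin-521, built from LAMA5, LAMB1 or LAMB2, and LAMC1, are the broad laminins of adult basement membranes.

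The libraries held 4490684 to 39270042 counts (median 15551202), and the replicate 12 library was the shallowest of every group. The 38 members together took 0.472% to 1.34% of a library. FOXP3 itself had 0 to 3 counts in any library, in both lines, so its counts cannot check the labels at this depth. The IFNγ response genes IRF1, GBP1, CXCL10 and ICAM1 rose with IFNγ in both lines. The 11 epithelial and urothelial markers summed to 4292 to 6430 normalized CPM (counts scaled to library size) across all libraries. Within this sum, 3 of 11 markers were higher and 3 lower in untreated HT1376 FOXP3 KO, and 2 were higher and 2 lower with IFNγ. Of all genes tested, 14.0% were higher and 18.2% lower without IFNγ, and 13.2% and 15.7% with it. The marker counts with IFNγ were thus near the shares of all genes. Without IFNγ the mean of EPCAM went from 85.1 to 22.2 CPM, of CDH1 from 379.9 to 239.7 CPM and of GATA3 from 165 to 102 CPM, all lower in HT1376 FOXP3 KO, while KRT7 went from 645 to 1231 CPM and KRT14 and TP63 were higher too. KRT8 did not pass the test, with means of 1154 to 1205 CPM in the 4 groups, and the urothelial marker UPK2 stayed at means of 0.114 to 0.671 CPM. Of 9 leukocyte markers, 3 to 5 were at 0 in a whole group, and their sum was 2.54 to 4.41 CPM in HT1376 CT and 10.8 to 16.2 CPM in HT1376 FOXP3 KO, mostly LCP1. The 7 fibroblast markers summed to 24.9 to 66.1 CPM in HT1376 CT and to 450.3 to 732 CPM in HT1376 FOXP3 KO, and none of the 7 was at 0 in a whole group. COL1A2, COL3A1, DCN, LUM and PDGFRB were higher in HT1376 FOXP3 KO and COL1A1 was lower, with and without IFNγ. The part of these epithelial and fibroblast marker shifts in the differences between the lines given below was not tested. The 5 endothelial markers summed to 0.602 to 9.37 CPM.

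Of the 38 members, 32 reached 10 counts over the 12 libraries. The 6 below this were ITGA4 with no count, ITGAD with 1 count in 1 library, ITGA8 and LAMC3 with at most 1 count in a library, ITGA11 with at most 4, and ITGAX with at most 6. ITGA4, ITGAD and ITGAX belong to integrins of leukocytes, and LAMC3 is a gamma chain of restricted tissue range. Levels are given as CPM scaled by the trimmed mean of M values (TMM), in the order of replicates 11, 12 and 13. Differences are log2 fold changes with their standard errors (SE) from the quasi-likelihood test of edgeR, and the adjusted p-values are corrected over all genes tested. A member was counted as changed at an adjusted p under 0.05.

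The first question was how the members differed between HT1376 CT and HT1376 FOXP3 KO without IFNγ. The laminin-332 chains LAMA3 and LAMB3 fell 29.8-fold and 3.89-fold, the collagen receptor subunit ITGA2 fell 7.05-fold, and LAMB4 rose 161-fold. Of 28 members with at least 10 counts in these 6 libraries, 4 rose and 14 fell. Of all 25320 genes tested, 32.1% were called, 14.0% higher and 18.2% lower. With the replicate number as a block, 5 members rose and 14 fell, where 36.6% of genes were called (15.9% higher, 20.6% lower). The median log2 fold change was -0.63 for the 28 members and -0.02 for all genes tested. In bulk RNA, fewer cells of a kind and less RNA per cell cannot be told apart.

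LAMA3, the alpha chain of laminin-332, was at 1107, 1504 and 1928 CPM in HT1376 CT and at 22.4, 61.4 and 67.2 CPM in HT1376 FOXP3 KO. The groups did not overlap, and replicate 11 was the lowest of both. The log2 fold change was -4.90 ± 0.39 (adjusted p = 4.33e-06), a 29.8-fold fall. LAMB3, the beta chain, was at 317, 467 and 664 CPM in HT1376 CT and at 118, 126 and 124 CPM in HT1376 FOXP3 KO, with a log2 fold change of -1.96 ± 0.22 (adjusted p = 4.97e-05). Its 3 libraries of HT1376 FOXP3 KO lay close together, and those of HT1376 CT spread more widely. On GRCh38 (GENCODE 44) LAMA3 lies on chromosome 18, bases 23689453 to 23956222, and LAMB3 on chromosome 1, bases 209614870 to 209652425. Both chains thus fell, by unequal amounts, and their groups did not overlap.

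Short stretches of promoters are shown for the members whose window holds the letters of the AP-1 motif. The motif searched was TGANTCA, which reads the same on both strands, in windows of 250 bases before to 50 bases after each gene start in RefSeq (GRCh38.p14). There were 33 windows for 26 of the 38 members, and LAMA1, ITGB4 and ITGA3 were among those with none. The motif was in 3 of the 33 member windows, of LAMA3, LAMB3 and ITGA5, and in 7.71% of all 35116 windows, so the share among members was near that of all windows. The sites lie on GRCh38.p14 at chr18:23872885-23872911 and chr18:23872941-23872967 on the plus strand (LAMA3), and at chr1:209651425-209651451 (LAMB3) and chr12:54419256-54419282 (ITGA5) on the minus strand. Capitals mark the motif in the sequences as printed 5′ to 3′ on the gene's strand.
LAMA3, first site: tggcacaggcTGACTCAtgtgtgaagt
LAMA3, second site: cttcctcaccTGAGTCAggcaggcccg
LAMB3: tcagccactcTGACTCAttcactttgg
ITGA5: ctccccgcgtTGAGTCAttcgcctctg
The motifs begin 125, 69, 67 and 6 bases before the start in this order, and the starts of these LAMA3 and LAMB3 windows lie inside the spans of the genes. LAMB3 has other start windows without this motif. A match describes the letters only, and binding was not measured in these libraries.

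The chains of laminin-511 and laminin-521 were level or higher in HT1376 FOXP3 KO. LAMC1, the gamma chain shared by most laminins, was at 585, 570.1 and 604 CPM in HT1376 CT and at 705, 709.6 and 866 CPM in HT1376 FOXP3 KO, and its log2 fold change was 0.39 ± 0.11 (adjusted p = 0.0168). LAMB2, the beta chain of laminin-521, was at 48.8, 59.5 and 59.1 CPM in HT1376 CT and at 94.1, 94.4 and 90.7 CPM in HT1376 FOXP3 KO, with a log2 fold change of 0.75 ± 0.12 (adjusted p = 0.000525). The groups did not overlap for either chain. LAMA5, the alpha chain of both trimers, had a log2 fold change of 0.27 ± 0.10 (adjusted p = 0.0567). LAMB1 had one of 0.22 ± 0.11 (adjusted p = 0.174). Thus 2 of these 4 chains rose, beside 14.0% of all genes tested, and 2 did not pass the test. With the replicate block LAMA5 was called higher as well (adjusted p = 0.0346).

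LAMB4, a beta chain that few tissues are known to make, showed the widest difference of all members. It was at 1.11, 0.874 and 0.767 CPM in HT1376 CT, from 19, 11 and 29 counts, and at 153, 89.6 and 184 CPM in HT1376 FOXP3 KO, from 3579, 1005 and 3195 counts. The log2 fold change was 7.33 ± 0.31 (adjusted p = 5.94e-08). The gene lies on chromosome 7, bases 108023548 to 108130361 of GRCh38. Its promoter window holds TAAACA, a motif of forkhead factors, the family to which FOXP3 belongs, in the opposite strand's letters TGTTTA at chr7:108130515-108130540 on GRCh38.p14 (gene on the minus strand), 169 bases before the start.
LAMB4: tctatttcccTGTTTAtgtgtgtgtg
TAAACA, searched on both strands, was in 6 of the 33 member windows, those of ITGA6, ITGB1, ITGB6, LAMB3 and LAMB4, and in 12.3% of all windows. The same LAMB3 site lies in overlapping windows of that gene, which were each counted. Of these members LAMB4 rose, LAMB3 and ITGB1 fell, and ITGA6 and ITGB6 did not pass the test. The longer forkhead motif TGTTTAC was in no member's window and in 3.42% of all windows.

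The alpha chains LAMA1, LAMA2 and LAMA4 fell too. LAMA1, the alpha chain of the embryonic laminin-111, went from 88.4, 114 and 114 CPM in HT1376 CT to 1.54, 3.48 and 6.51 CPM in HT1376 FOXP3 KO, with a log2 fold change of -4.79 ± 0.38 (adjusted p = 4.64e-06), or -5.43 without HT1376 FOXP3 KO replicate 13. An antisense gene covers 10.4% of its exons. LAMA2, the alpha chain of muscle and nerve laminins, had a mean of 4.3 ± 1.62 CPM in HT1376 CT and 0.719 ± 0.484 CPM in HT1376 FOXP3 KO (SD, n = 3 each), a log2 fold change of -2.45 ± 0.49. LAMA4, an alpha chain of blood vessel laminins, fell by 1.15 on the log2 scale (adjusted p = 0.047), and this call was lost without HT1376 CT replicate 11 or 13 or any 1 library of HT1376 FOXP3 KO (log2 fold changes -1.33 to -0.82).

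**Figure D1:**
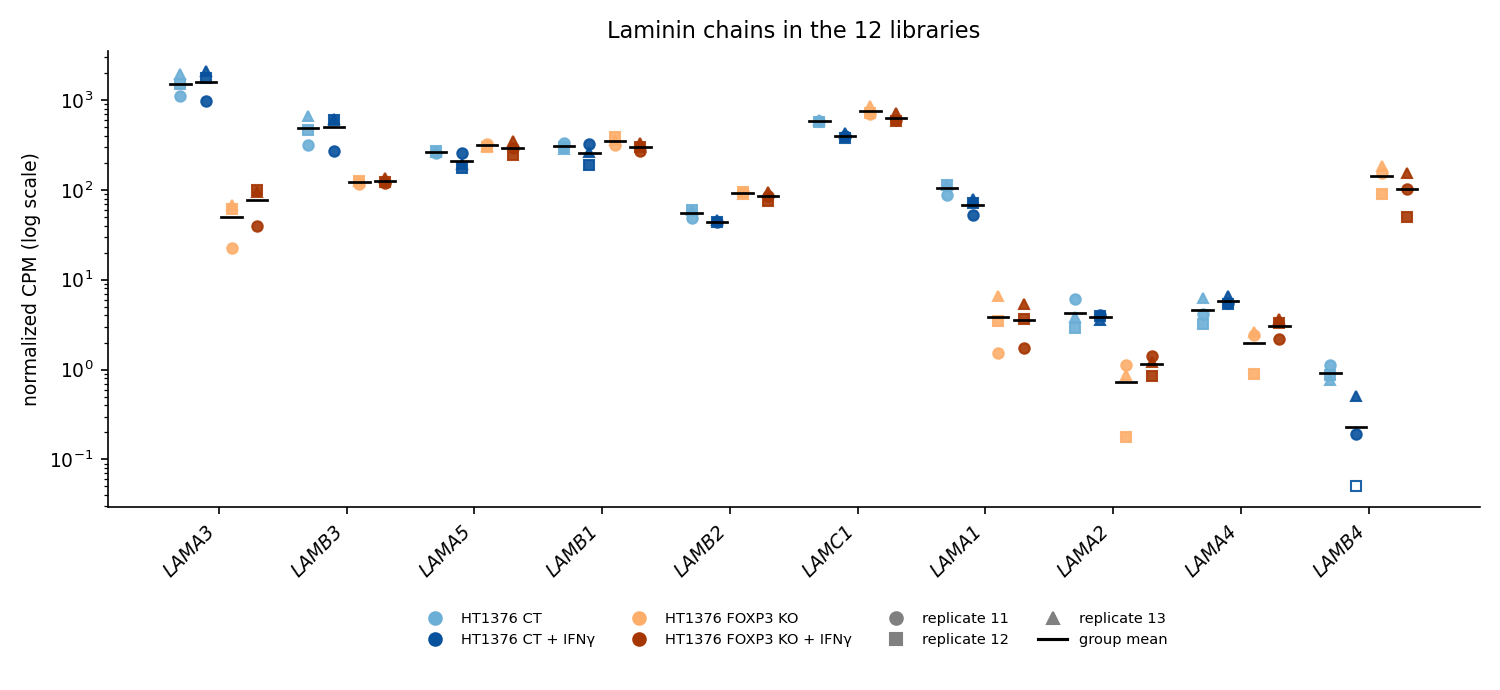
Normalized CPM (log scale) of 10 laminin chains in each of the 12 libraries, with color for the group, shape for the replicate number and a line for the group mean; the open symbol is a library of LAMB4 with no count, drawn at the bottom. The laminin-332 chains LAMA3 and LAMB3 lie lower in HT1376 FOXP3 KO in both treatments, and LAMB4 lies higher.

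Among the integrins, 1 subunit rose and 8 fell of 17 tested, beside 14.0% higher and 18.2% lower of all genes tested. ITGA2, which pairs with ITGB1 as a collagen receptor and also binds laminin, was at 1447, 1254 and 2071 CPM in HT1376 CT and at 202, 184 and 282 CPM in HT1376 FOXP3 KO. Its log2 fold change was -2.82 ± 0.21 (adjusted p = 2.61e-06). ITGA1, the other collagen receptor subunit measured well and the neighbor of ITGA2 in the genome, went the other way, from 16.7, 26.5 and 19.2 CPM to 42.8, 31.3 and 68.7 CPM, with a log2 fold change of 1.22 ± 0.26 (adjusted p = 0.00462). The groups did not overlap for either subunit. The exons of ITGA1 share 7.47% of their length with ITGA2-AS1 on the opposite strand.

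Of the 4 laminin-binding integrin subunits tested, ITGA3 and ITGB4 fell and ITGA6 and ITGA7 did not pass the test. ITGA3, which pairs with ITGB1 and binds laminin-332 and laminin-511, was at 611, 555 and 583 CPM in HT1376 CT and at 199.5, 154 and 261 CPM in HT1376 FOXP3 KO, and its log2 fold change was -1.49 ± 0.16 (adjusted p = 4.82e-05). ITGB4, the hemidesmosome subunit with the long cytoplasmic tail that binds plectin, was at 939.5, 1023 and 1182 CPM and at 471, 508 and 499 CPM, a 2.1-fold fall with a log2 fold change of -1.07 ± 0.11 (adjusted p = 2.69e-05). ITGB4 lies on chromosome 17, bases 75721328 to 75757818 of GRCh38. Its only partner, ITGA6, was at 1148, 1039 and 1063 CPM and at 1075, 1112 and 1258 CPM, with a log2 fold change of 0.10 ± 0.10 (adjusted p = 0.484). The groups overlapped for ITGA6 and not for ITGA3 or ITGB4. ITGA7, the laminin receptor subunit of muscle, had 1 to 26 counts in a library.

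ITGB1, the beta subunit of most matrix receptors, was at 734, 793 and 946 CPM in HT1376 CT and at 497, 475 and 587 CPM in HT1376 FOXP3 KO, with a log2 fold change of -0.65 ± 0.12 (adjusted p = 0.00215). Of the subunits of receptors for fibronectin, vitronectin and latent TGF-beta, which read the tripeptide RGD, 3 of 6 tested fell. Among all genes tested, 18.2% were lower. The log2 fold change was -1.21 ± 0.18 for ITGB8, a subunit that activates latent TGF-beta, -0.50 ± 0.13 for ITGAV and -2.12 ± 0.54 for ITGA5, the fibronectin receptor subunit (adjusted p = 0.000492, 0.0104 and 0.012). ITGA5 was at 25.1, 67.8 and 35.2 CPM in HT1376 CT and at 4.03, 20.4 and 5.76 CPM in HT1376 FOXP3 KO, so replicate 12 was the highest of both groups and no value of one group reached the other. Its call was lost without HT1376 CT replicate 12 (log2 fold change -1.59) or HT1376 FOXP3 KO replicate 11 (-1.66) or 13 (-1.78), and the value was -3.09 without HT1376 FOXP3 KO replicate 12. The call of ITGAV was lost without HT1376 CT replicate 13 (-0.43) or HT1376 FOXP3 KO replicate 11 (-0.44). ITGB5 had a log2 fold change of 0.14 ± 0.25 and ITGB6 one of -0.12 ± 0.20, and neither passed the test. The exons of ITGB6 share 16.7% of their length with a gene on the same strand.

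The leukocyte integrins stood at low levels. ITGAE, the alpha subunit of lymphocytes that lodge in epithelia, had means of 10.4 ± 3.11 CPM in HT1376 CT and 8.01 ± 0.722 CPM in HT1376 FOXP3 KO (SD, n = 3 each), and did not pass the test. ITGAM, a subunit of myeloid cells, had 15 to 83 counts in a library of HT1376 CT and 3 to 12 in one of HT1376 FOXP3 KO. It fell by 1.70 on the log2 scale (adjusted p = 0.0414), and the call was lost without HT1376 CT replicate 12 or 13 or HT1376 FOXP3 KO replicate 11 or 13 (log2 fold changes -1.79 to -1.21). ITGAL, ITGB2, ITGB7, ITGB3, ITGA9 and ITGA10 had at most 9 counts in any library, and ITGA9 had 6, 6 and 6 of them in HT1376 FOXP3 KO with IFNγ against 2, 0 and 0 in HT1376 CT with IFNγ, a difference that did not pass the test (adjusted p = 0.194). The exons of ITGB7 and ITGB3 share 42.3% and 33.2% of their length with other genes. ITGA2B, the platelet subunit, had at most 43.

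**Figure D2:**
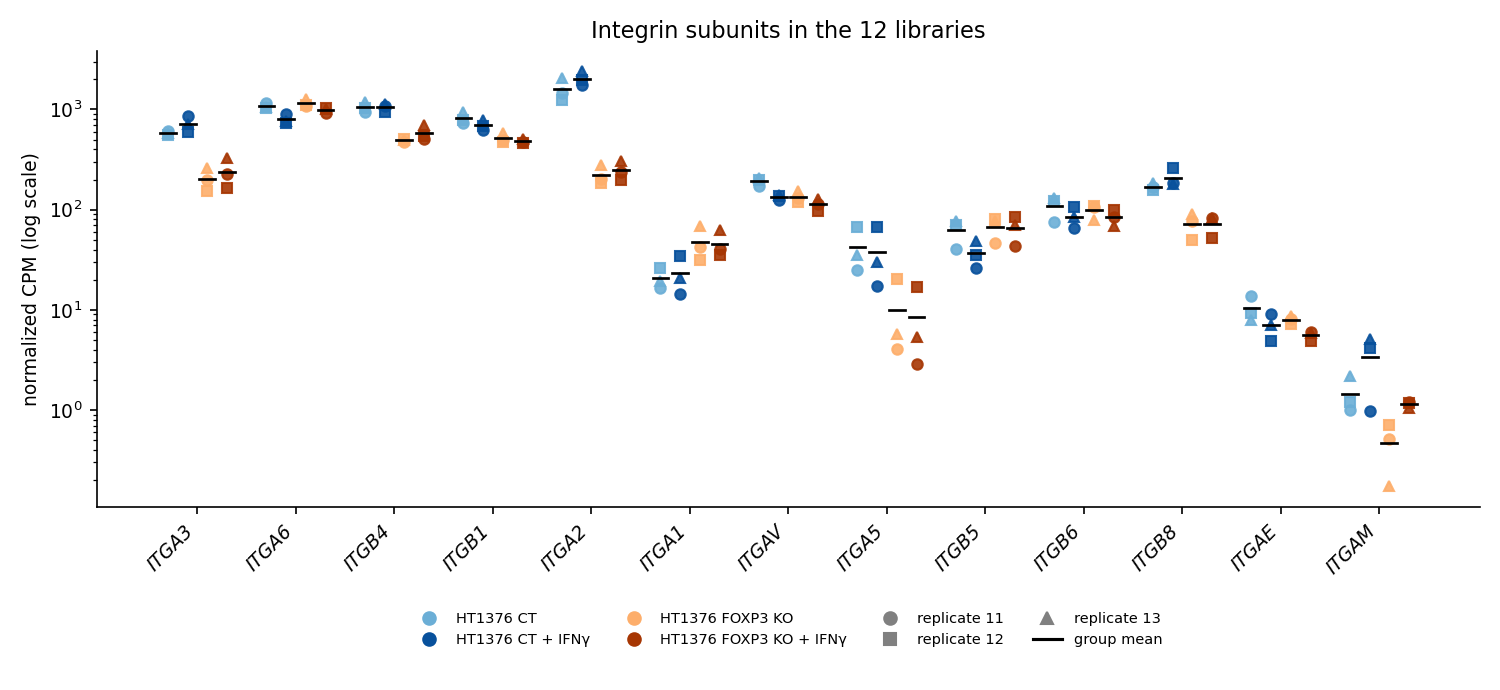
Normalized CPM (log scale) of 13 integrin subunits in each of the 12 libraries, with color for the group, shape for the replicate number and a line for the group mean. ITGA2, ITGA3, ITGB4 and ITGB8 lie lower in HT1376 FOXP3 KO in both treatments, ITGA6 stays between 731 and 1258 CPM, and replicate 12 is the highest library of ITGA5 in each group.

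To set members beside each other, the levels were divided by the exon length of the gene, counted once over all transcripts (CPM per kb). In untreated HT1376 CT LAMA3 led the alpha chains and LAMB3 the beta chains. LAMA3 stood at 104 ± 28.4 CPM per kb against 18.4 ± 0.53 for LAMA5 and LAMB3 at 104 ± 37.5 against 16.5 ± 1.42 for LAMB1 (SD, n = 3). In untreated HT1376 FOXP3 KO the order of these alpha chains was turned around, with LAMA5 at 21.9 ± 0.874 and LAMA3 at 3.47 ± 1.68 CPM per kb. No library of one chain reached the range of the other in these comparisons of LAMA3 with LAMA5. Among the beta chains LAMB3 was at 26.4 ± 0.938, LAMB4 at 20.3 ± 6.86 and LAMB1 at 19 ± 1.86 CPM per kb, and LAMB4 overlapped both of the others. With the length of the longest transcript instead, the order of LAMA3 and LAMA5 was the same, and LAMB1 led the beta chains of HT1376 FOXP3 KO with 52.4 ± 5.13 CPM per kb.

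Among the alpha integrin subunits, ITGA2 led in HT1376 CT with 201 ± 54.1 CPM per kb, ahead of ITGA6 with 162 ± 8.59, and their libraries overlapped. In HT1376 FOXP3 KO ITGA6 led with 172 ± 14.4 CPM per kb, apart from ITGA2 with 28.2 ± 6.58 and ITGA3 with 20.9 ± 5.46, which overlapped each other. ITGB4 led the beta subunits with 155 ± 18.2 CPM per kb in HT1376 CT and 72.9 ± 2.83 in HT1376 FOXP3 KO, ahead of ITGB1 with 56.6 ± 7.52 and 35.7 ± 4.07. By the longest transcript ITGB1 came first in untreated HT1376 FOXP3 KO, with 92.6 ± 10.6 against 83.6 ± 3.24 CPM per kb and overlapping libraries, so the order of these 2 subunits there depends on the length used. In untreated HT1376 CT ITGB4 stayed first by that length, with 178 ± 20.9 against 147 ± 19.5 CPM per kb, and the libraries overlapped.

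Some members are next to each other in the genome on the same strand with no other gene between them, and 2 such pairs that parted between the lines are given here. ITGA1 and ITGA2 lie 30130 bases apart on chromosome 5 and LAMB1 and LAMB4 lie 20334 bases apart on chromosome 7 (GRCh38, GENCODE 44). The ratio of 2 counts in 1 library does not depend on scaling. ITGA2 had 86.7, 47.4 and 108 counts for each count of ITGA1 in untreated HT1376 CT and 4.72, 5.89 and 4.1 in untreated HT1376 FOXP3 KO. LAMB4 had 0.00332, 0.0029 and 0.00271 counts for each count of LAMB1 in HT1376 CT and 0.483, 0.232 and 0.518 in HT1376 FOXP3 KO. In both pairs the ranges of the lines lay apart, and the untreated libraries within a line differed by less than 3-fold. The pairs were chosen for parting in these same libraries, so the ratios describe the difference and do not test it.

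**Figure D3:**
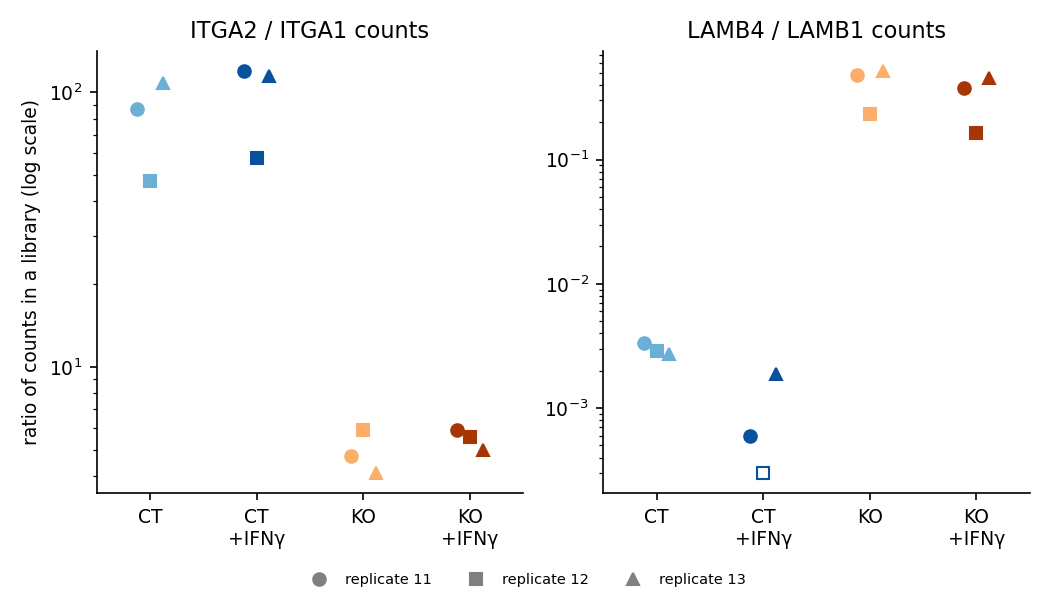
Ratio of the counts of 2 neighboring gene pairs in each library (log scale), by group, with shape for the replicate number; the open symbol is a library with no LAMB4 count, drawn at the bottom. The ratio of ITGA2 to ITGA1 is lower, and that of LAMB4 to LAMB1 higher, in all HT1376 FOXP3 KO libraries than in all HT1376 CT libraries.

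The second question was how the lines differed when both had received IFNγ, in other libraries of the same clones. Same-numbered libraries of a line deviated together across the treatments, so the comparisons without and with IFNγ are not independent. Of 31 members tested, 7 stood higher in HT1376 FOXP3 KO and 13 stood lower. Of all 24388 genes tested, 28.9% were called, 13.2% higher and 15.7% lower, and the median log2 fold change was -0.81 for the members and 0.02 for all genes. With the block, 7 were higher and 12 lower, where 34.0% of genes were called (16.0% higher, 17.9% lower). The 4 members LAMB4, ITGA1, LAMB2 and LAMC1 were higher in both treatments, and 12 were lower in both, among them ITGA2, ITGA3, ITGA5, ITGB1, ITGB4, ITGB8, LAMA1, LAMA2, LAMA3, LAMA4 and LAMB3. The share of all genes called the same way in both treatments was not counted, so these numbers of members cannot be set beside it.

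With IFNγ, LAMA3 was at 987, 1748 and 2076 CPM in HT1376 CT and at 39.4, 98.7 and 94.3 CPM in HT1376 FOXP3 KO, a log2 fold change of -4.33 ± 0.37. LAMB3 was at 271, 599.9 and 619 and 119, 123 and 137 CPM, a log2 fold change of -1.93 ± 0.26. LAMA3 and LAMB3 were again lower in every HT1376 FOXP3 KO library than in every HT1376 CT library, with adjusted p of 7.4e-06 and 0.000212 in this order. Of the laminin-511 and laminin-521 chains, 3 of 4 were higher, beside 13.2% of all genes tested. The differences were 0.99 ± 0.13 for LAMB2, 0.70 ± 0.11 for LAMC1 and 0.54 ± 0.16 for LAMA5 on the log2 scale. LAMB4 had 2, 0 and 9 counts in HT1376 CT and 1542, 464 and 4670 counts in HT1376 FOXP3 KO, a log2 fold change of 8.28 ± 0.55 (adjusted p = 1.26e-06), which was 9.51 without HT1376 CT replicate 13.

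For the receptors with IFNγ, the log2 fold change was -3.00 ± 0.17 for ITGA2, -1.56 ± 0.21 for ITGA3, -1.48 ± 0.20 for ITGB8, -0.81 ± 0.12 for ITGB4 and -0.48 ± 0.11 for ITGB1. ITGB4 was at 1074, 952 and 1133 CPM in HT1376 CT and at 513, 544 and 693 CPM in HT1376 FOXP3 KO, with no overlap. The integrins ITGA1, ITGB5 and ITGA6 were higher in HT1376 FOXP3 KO, by 1.06 ± 0.29, 0.87 ± 0.26 and 0.34 ± 0.11 on the log2 scale. ITGA6 was at 908, 731 and 764 CPM and at 922, 1039 and 1001 CPM, and ITGB5 at 26.4, 35.1 and 49.1 and 42.9, 84.1 and 70.6 CPM. The groups of ITGA6 did not overlap and those of ITGB5 did. ITGA5 and ITGA2B were lower by log2 fold changes of -2.16 ± 0.61 and -2.19 ± 0.73, the latter from 3 to 30 counts in a library. The call of ITGA2B was lost with the replicate block (adjusted p = 0.0596) and with total counts as scaling.

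Several of these calls were lost when 1 library was left out. The call of LAMA4 was lost without any 1 of the 6 libraries, with log2 fold changes of -1.04 to -0.72. That of ITGA6 was lost without any 1 library but HT1376 CT replicate 11, with 0.29 to 0.38. The call of ITGA5 was lost without HT1376 CT replicate 12 or 13 or HT1376 FOXP3 KO replicate 11 or 13, with -2.29 to -1.49, and its value was -3.10 without HT1376 FOXP3 KO replicate 12. The call of ITGA2B was lost without replicate 11 or 13 of either line (-2.43 to -1.62). That of LAMA5 was lost without HT1376 CT replicate 12 or 13 or HT1376 FOXP3 KO replicate 11 or 13 (0.41 to 0.54), and that of ITGB5 without HT1376 CT replicate 11 or 12 or HT1376 FOXP3 KO replicate 12 or 13 (0.64 to 0.84). The call of ITGA1 was lost without HT1376 CT replicate 11 or 13 or HT1376 FOXP3 KO replicate 13 (0.79 to 0.999), and that of ITGB1 without HT1376 CT replicate 13 (-0.38).

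**Figure D4:**
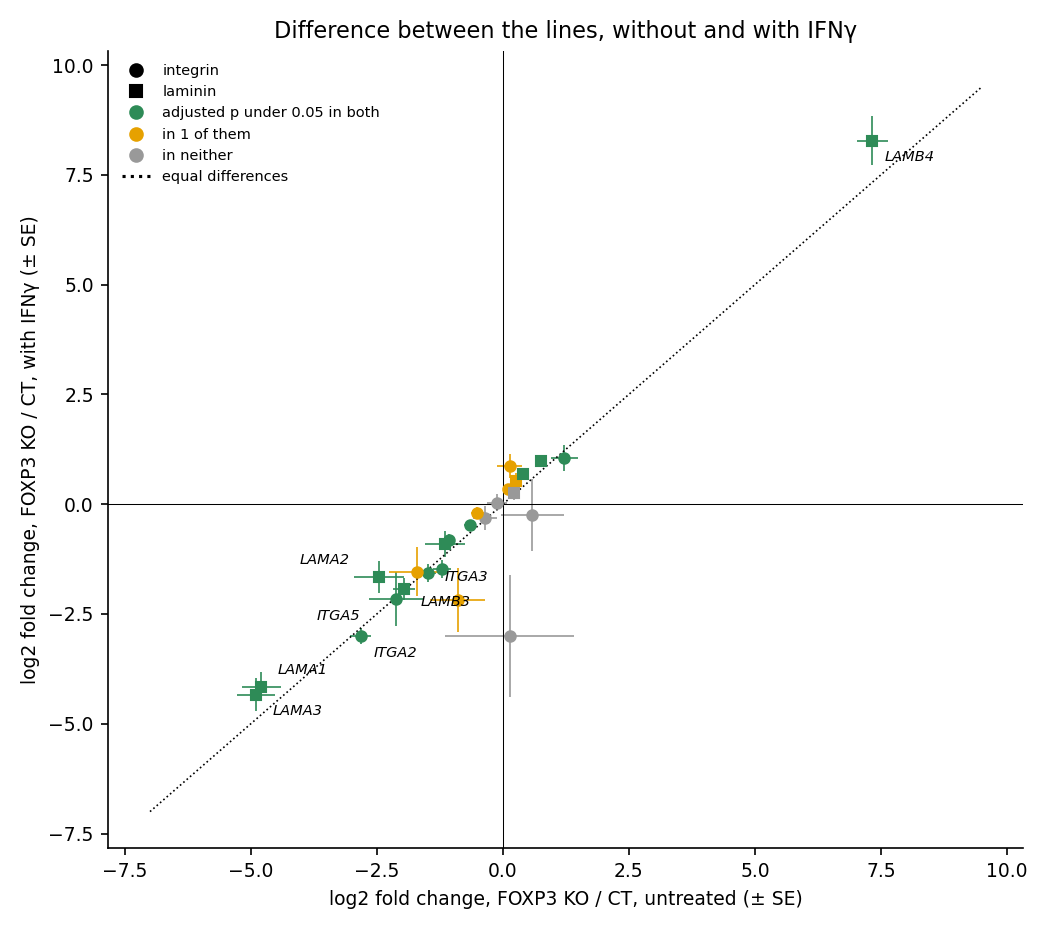
Log2 fold change of HT1376 FOXP3 KO over HT1376 CT for members tested in both treatments, untreated on the horizontal axis and with IFNγ on the vertical axis, with SE as bars; circles are integrins, squares laminins, and green, orange and grey mark an adjusted p under 0.05 in both treatments, in 1 or in neither. The dotted line marks equal differences. LAMB4 lies at the upper right at 7.33 and 8.28, LAMA3 and LAMA1 at the lower left, and most called members lie near the dotted line.

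The third question was what IFNγ did to the members within a line. Libraries with the same replicate number deviated together within each line, so each comparison is given from a fit that treats the number as a block and from one that does not. In HT1376 CT, 3 of 31 members were called without the block, all lower, where 5.35% of all genes were called (3.53% higher, 1.82% lower). These were LAMC1 with a log2 fold change of -0.52 ± 0.09 (adjusted p = 0.00565), ITGAV with -0.50 ± 0.11 (adjusted p = 0.0205) and ITGA6 with -0.41 ± 0.10 (adjusted p = 0.0369). LAMC1 went from 585, 570.1 and 604 CPM to 394, 378 and 433 CPM, and it fell in each of the 3 replicate pairs, as did ITGAV and ITGA6. The call of ITGA6 was lost without any 1 library but HT1376 CT + IFNγ replicate 11, with log2 fold changes of -0.44 to -0.36. That of ITGAV was lost without untreated replicate 12 or 13 or IFNγ replicate 11 or 13, with -0.53 to -0.45.

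With the block, 15 of the 31 members were called in HT1376 CT, 4 higher and 11 lower, where 18.6% of all genes were called (8.67% higher, 9.88% lower). The higher ones were ITGA2 with a log2 fold change of 0.40 ± 0.05, ITGA3 with 0.33 ± 0.06, ITGB8 with 0.29 ± 0.07 and ITGAM with 1.09 ± 0.38. The lower ones took in all 4 chains of laminin-511 and laminin-521, with LAMC1 at -0.52 ± 0.06, LAMA5 at -0.32 ± 0.07, LAMB2 at -0.30 ± 0.10 and LAMB1 at -0.23 ± 0.07. The calls of LAMB1 and of ITGB8 were lost when the block was fitted with bias-adjusted deviance, another estimate of the spread that edgeR offers. LAMA3 at 0.08 ± 0.05 and LAMB3 at 0.03 ± 0.06 did not pass the test. The lower members also held ITGB5 at -0.70 ± 0.10, LAMA1 at -0.63 ± 0.09, ITGAV at -0.50 ± 0.08, ITGA6 at -0.42 ± 0.06, ITGB6 at -0.32 ± 0.08 and ITGB1 at -0.22 ± 0.06. ITGB4 was at 939.5, 1023 and 1182 CPM without and at 1074, 952 and 1133 CPM with IFNγ, and its log2 fold change of 0.03 ± 0.06 did not pass the test.

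In HT1376 FOXP3 KO, 0 of 30 members were called by edgeR without the block, where 0.982% of all genes were called (0.978% higher, 0.00414% lower). DESeq2 called 0 as well. In the edgeR fit 6 of 30 members had an unadjusted p under 0.05, as did 1295 of all 24131 genes tested. With the block, 8 members were called, 3 higher and 5 lower, where 5.53% of all genes were called (3.92% higher, 1.60% lower). LAMA3 went from 22.4, 61.4 and 67.2 CPM to 39.4, 98.7 and 94.3 CPM, higher in each of the 3 replicate pairs, with a log2 fold change of 0.66 ± 0.08 with the block (adjusted p = 2.75e-14) and 0.64 ± 0.42 without it (adjusted p = 0.999). ITGB4 went from 471, 508 and 499 CPM to 513, 544 and 693 CPM, with 0.25 ± 0.05 with the block (adjusted p = 3.44e-05; 0.911 without it) and no overlap between the groups. ITGA3 rose by 0.22 ± 0.06 with the block. The lower members were LAMB4 at -0.52 ± 0.07, LAMC1 at -0.25 ± 0.05, ITGAV at -0.23 ± 0.07, ITGA6 at -0.20 ± 0.05 and LAMB1 at -0.20 ± 0.05. LAMC1, ITGAV, ITGA6 and LAMB1 were thus lower with IFNγ in both lines, and ITGA3 was higher in both, in the fits with the block. LAMB1 lost its call in both lines with the block and bias-adjusted deviance.

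**Figure D5:**
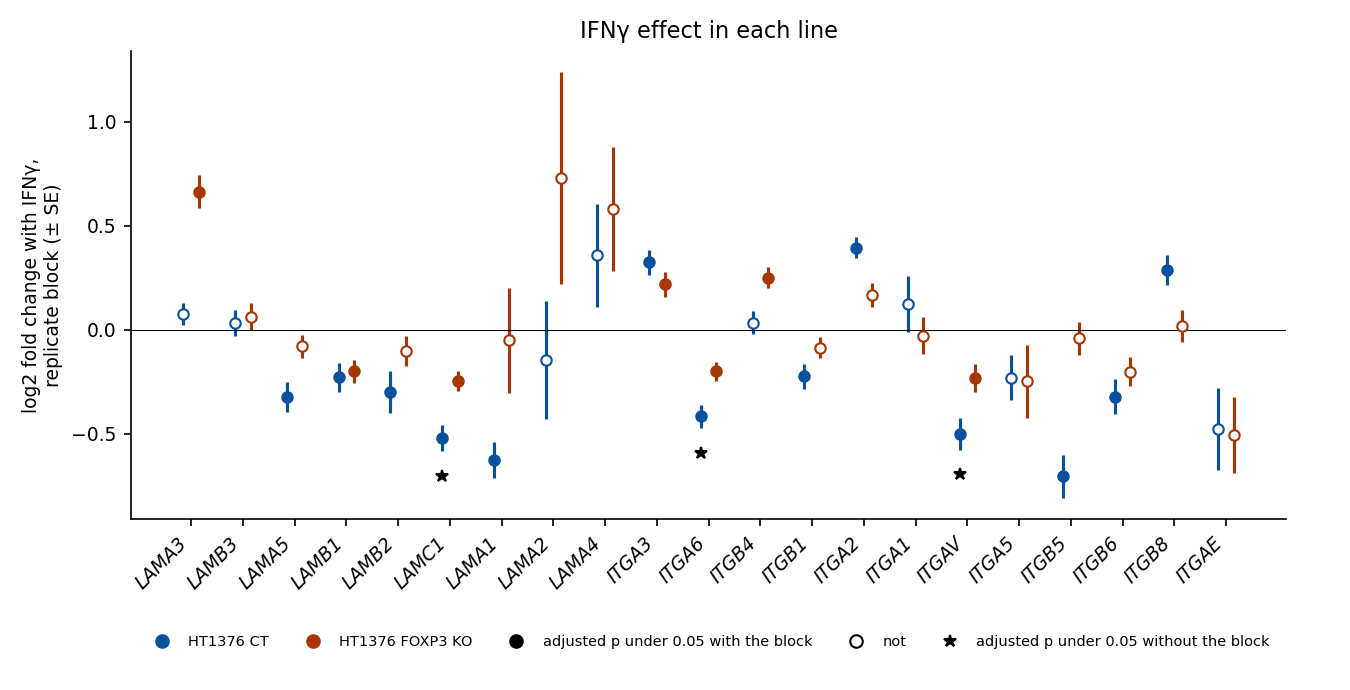
Log2 fold change with IFNγ (vertical axis) of 21 members in HT1376 CT and in HT1376 FOXP3 KO, from the fit with the replicate block, with SE as bars; filled points passed an adjusted p of 0.05 with the block and stars mark those that passed without it. LAMC1, ITGA6 and ITGAV carry the stars, all in HT1376 CT. Among the 21 members drawn, which leave out LAMB4 and members with few counts, ITGB5 and LAMA1 lie lowest there.

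Whether IFNγ acted differently in the 2 lines was tested as the interaction over all 12 libraries. Of 32 members tested, edgeR called 0 without the block, where 0.111% of all genes were called (0.00360% higher, 0.108% lower), and DESeq2 called 0. In the edgeR fit 0 members had an unadjusted p under 0.05, against 1727 of all 27806 genes tested. With 1 block for each replicate number across both lines, 1 member was called, where 1.21% of all genes were called (0.525% higher, 0.683% lower). This was ITGB5, whose level went from 40.2, 70.2 and 76.3 to 26.4, 35.1 and 49.1 CPM with IFNγ in HT1376 CT and from 46, 80.9 and 76.7 to 42.9, 84.1 and 70.6 CPM in HT1376 FOXP3 KO. The difference of the IFNγ effects, HT1376 FOXP3 KO minus HT1376 CT, was 0.65 ± 0.16 (adjusted p = 0.0411) with the block and 0.69 ± 0.41 (adjusted p = 0.887) without it. ITGB5 did not pass with that block and bias-adjusted deviance.

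Over genes with at least 10 counts in all, the deviations of same-numbered libraries correlated by 0.139 to 0.267 within the lines and by 0.0407 to 0.136 between them. Those of different-numbered libraries correlated by -0.19 to -0.0033 within the lines and by -0.114 to 0.0706 between them. Between the lines the ranges of same and different numbers thus overlapped. The interaction was also fitted with a separate block in each line, a fit chosen after seeing the data. It called 4 members, 3 higher and 1 lower, where 4.75% of all genes were called (2.69% higher, 2.06% lower). The difference of the IFNγ effects was 0.59 ± 0.08 for LAMA3 (adjusted p = 1.28e-10), with an effect of 0.66 in HT1376 FOXP3 KO and 0.08 in HT1376 CT. It was 0.66 ± 0.13 for ITGB5 (adjusted p = 3.63e-05) and 0.27 ± 0.08 for LAMC1 (adjusted p = 0.018), which fell with IFNγ in both lines, by 0.52 in HT1376 CT and by 0.25 in HT1376 FOXP3 KO on the log2 scale. It was -0.23 ± 0.07 for ITGA2 (adjusted p = 0.0386), and this call was lost with bias-adjusted deviance (adjusted p = 0.224). The other 3 calls passed with it at larger adjusted p-values, 0.00131 for LAMA3, 0.00333 for ITGB5 and 0.0343 for LAMC1. None of the 4 differences passed the test without a block.

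Other genes of the same machinery were taken from lists. Of 6 further genes of hemidesmosomes and laminin receptors, 1 rose and 2 fell in untreated HT1376 FOXP3 KO, against 3 that rose and 0 that fell with IFNγ, beside 32.1% and 28.9% of all genes called. DAG1, the laminin receptor dystroglycan, was higher in both treatments (log2 fold changes 0.81 ± 0.10 and 1.47 ± 0.15), DST, a plakin of hemidesmosomes, was lower without IFNγ (-0.48 ± 0.09), as was BCAM, a receptor of LAMA5 (-1.44 ± 0.46), and PLEC, plectin, was higher with IFNγ (0.78 ± 0.13), as was the tetraspanin CD151 (0.76 ± 0.17). COL17A1, the hemidesmosome collagen, had log2 fold changes of -0.36 ± 0.27 and -0.08 ± 0.26 and did not pass the test. In HT1376 CT, DAG1, PLEC and DST were lower with IFNγ in the fit without the block (log2 fold changes -0.85 ± 0.12, -0.69 ± 0.11 and -0.39 ± 0.09).

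Of 19 genes that link integrins to actin and signal from them, 6 rose and 5 fell in untreated HT1376 FOXP3 KO, against 6 that rose and 2 that fell with IFNγ, beside 14.0% higher and 18.2% lower of all genes without IFNγ and 13.2% and 15.7% with it. The tensins TNS1 and TNS3 were higher in both treatments. TNS1 was higher by 4.47 ± 0.34 and 3.12 ± 0.30, from only 11, 5 and 12 counts in untreated HT1376 CT. TNS3 was higher by 1.20 ± 0.15 and 1.80 ± 0.14. Another tensin, TNS4, had lower means in HT1376 FOXP3 KO, with overlapping libraries. Its mean went from 269 CPM in HT1376 CT to 169 CPM without IFNγ, and from 193 to 151 CPM with it. PARVA, the actin-binding parvin, was higher by 1.03 ± 0.12 and 1.55 ± 0.16, and BCAR1, a scaffold of adhesion signaling, was lower with -0.97 ± 0.15 and -0.87 ± 0.17. TLN1, the talin that switches integrins on, had log2 fold changes of -0.04 ± 0.10 and 0.05 ± 0.11 and did not pass the test.

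Of 22 genes of the basement membrane and of other integrin ligands, 20 were tested between the lines, of which 7 rose and 7 fell without IFNγ, and 9 rose and 8 fell with it, in HT1376 FOXP3 KO, beside the same shares of all genes (14.0% and 18.2%, then 13.2% and 15.7%). The collagen IV genes parted in pairs. COL4A3 and COL4A4 were higher by 6.39 ± 0.26 and 5.05 ± 0.29 without IFNγ, whereas COL4A5 and COL4A6 were lower with -0.73 ± 0.11 and -2.43 ± 0.14. In untreated HT1376 CT, COL4A3 had only 11, 18 and 26 counts and COL4A4 had 22, 51 and 105. Fibronectin, FN1, a ligand of ITGA5 and ITGAV, was higher by 1.74 ± 0.53, while TNC, tenascin C, was lower with -5.33 ± 0.63. With IFNγ in HT1376 CT and without the block, 2 of 19 of these genes tested rose and 2 fell. Of all genes, 3.53% were higher and 1.82% lower. COL4A1 rose by 5.99 ± 0.54, from 3, 0 and 6 counts to 78, 23 and 219. NID1, which bridges laminin and collagen IV, rose by 2.06 ± 0.38, while HSPG2 and TGFB2 fell.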

How the data were processed

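HT1376 CT and HT1376 FOXP3 KO, with and without IFNγ, were sequenced as ribosome-depleted total RNA (KAPA RNA HyperPrep with RiboErase), 3 libraries a group. The deposited counts are whole numbers per gene: the authors aligned reads with STAR (2.7.11a in the submitters' processing notes) to GRCh38, removed Mycoplasma reads with Kraken and counted with htseq-count. Whether counting used strand is not given in the sources used here, so reads of overlapping genes may be shared.

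From the counts, edgeR 4.0.16 in R 4.3.3 fitted quasi-likelihood models with TMM scaling to genes with at least 10 counts in the libraries fitted, 6 for each pair of groups and 12 for the interaction, with Benjamini-Hochberg adjustment over all genes tested. Members are named by this rule, except that 1 member counted in the totals and 1 other gene are not reported here. Exon lengths and positions came from GENCODE 44 (GRCh38) and promoters from RefSeq. Same-numbered libraries correlated within lines (r 0.139 to 0.267) and less between lines (0.0407 to 0.136), in deviations of log2 CPM with a prior count of 2. Different-numbered libraries had r of -0.114 to 0.0706 between lines. DESeq2 1.42.0, other scalings and filters, the block and left-out libraries were alternatives. The fits were tested on simulated data. Members and lists were chosen with earlier results of these data known.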

Additional observations from a re-analysis of the deposited data

Results flagged for a closer look

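The IFNγ effect on ITGB5, a beta subunit of vitronectin receptors, differed between the lines in the interaction test with the replicate block. The difference of HT1376 FOXP3 KO minus HT1376 CT was 0.65 on the log2 scale, and 0.66 with a separate block in each line. With a separate block in each line the effect also differed for LAMA3 (0.59), LAMC1 (0.27) and ITGA2 (-0.23). Without a block none of these differences passed the test, and ITGB5 had an adjusted p of 0.887 (edgeR).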

How the results depend on the processing

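The number of members called between the untreated lines stayed within 1.5 times the 18 reported under every alternative run. With IFNγ the 20 calls between the lines became 13 to 17 when 1 library was left out, with 13 without replicate 13 of either line. For IFNγ in HT1376 CT, the 3 calls became 6 without the filter on low counts, 15 with the replicate block, 13 with the replicate block and bias-adjusted deviance, and 1 to 4 when 1 library was left out, with 1 without untreated replicate 12 or IFNγ replicate 13. For IFNγ in HT1376 FOXP3 KO, the 0 calls became 8 with the replicate block and 7 with the block and bias-adjusted deviance. For the interaction, the 0 calls became 1 with the replicate block (0 with that block and bias-adjusted deviance), 4 with a block within each line and 3 with that block and bias-adjusted deviance. Leaving out 1 library turned the sign of ITGA3 with IFNγ in HT1376 FOXP3 KO, which had not passed the test without the block (log2 fold changes -0.024 to 0.43). The replicate block gave 19 and 19 calls between the lines. Total counts as scaling gave 17 and 18 calls between the lines. It ended the calls of ITGAM and LAMA4 without IFNγ and of ITGA2B and LAMA4 with it, DESeq2 ended that of ITGA5 with IFNγ, and leaving out the replicate 12 libraries ended those of ITGA6 and ITGB5 with IFNγ. Without the replicate 12 libraries, the shallowest, the calls were 18, 18, 2, 0 and 0 in the order of these comparisons. The cause of these changes was not tested. The block within each line, total counts as scaling and the fits without replicate 12 were chosen after seeing the data. Members with few counts, such as ITGA9 and ITGAL, could show only wide differences at this depth.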

Other observations

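Some members had the same replicate number as the lowest, or as the highest, in all 4 groups. Replicate 11 was the lowest of each group for 6 of 32 members, ITGA5, ITGB5, LAMA1, LAMA3 and LAMB3 among them, against 2.30% of 27806 genes. Replicate 13 was the highest of each group for 7 of 32 members, ITGA2, ITGAV, ITGB1, LAMA1, LAMA4 and LAMC1 among them, against 4.64% of genes. Replicate 12 was the highest of each group for 1 of 32 members, ITGA5, against 4.53% of genes. It was the lowest for 1 of 32, ITGA3, against 8.56%. LAMA3 and LAMB3 were thus lowest in replicate 11 in both lines and both treatments.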
